A study of Mus musculus with 20 samples.

Results

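The 6 genes described here encode subunits and regulators of the sodium pump (Na,K-ATPase) and were followed in embryonic mouse hearts deleted for Kmt2d: the beta subunit genes Atp1b1, Atp1b2 and Atp1b3 and the FXYD genes Fxyd1, Fxyd5 and Fxyd6. They were found by symbol and are 6 of the 33495 genes counted, each listed once. Whole hearts of E9.0 were sequenced for Mesp1Cre, which is active in mesodermal precursors, with 4 controls of genotype Mesp1Cre; Kmt2d fl/+; mTmG/+ and 4 mutants of genotype Mesp1Cre; Kmt2d fl/fl; mTmG/+. Right ventricles with outflow tracts of E11.5 were sequenced for Mef2cAHF::Cre, active in anterior heart field precursors and pharyngeal arches, and whole hearts of E11.5 for Tnnt2::Cre, active in embryonic myocardium. Each of these lines had 3 controls and 3 mutants of the corresponding genotypes on C57BL/6. All groups carried a Cre, the mTmG reporter and at least 1 floxed allele, so each comparison sets deletion of both Kmt2d alleles against deletion of 1, in tissue that also holds cells without Cre activity. The sample labels give E9.0 for Mesp1Cre, while the protocol text names E11.5 for all hearts.

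For Mef2cAHF::Cre the labels disagree among themselves. The titles and genotypes were followed, and its groups are named here as labelled mutant or labelled control. The column names of the table give each library the opposite genotype. Kmt2d, the deleted gene, had 11.6 ± 0.232 RPKM in the 3 libraries labelled mutant (SD, n = 3) and 9.30 ± 0.357 RPKM in the 3 labelled control (SD, n = 3), which goes against the titles. The counts cover the whole gene and not its floxed part alone. In the other lines it was lower in mutants, with 8.31 ± 0.446 against 9.73 ± 0.345 RPKM in Mesp1Cre (SD, n = 4 each) and 7.35 ± 0.267 against 9.35 ± 1.30 RPKM in Tnnt2::Cre (SD, n = 3 each). Levels are reads per kilobase of gene, scaled to library size (RPKM), after 1 TMM normalisation of all 20 libraries, so that genes and libraries can be set side by side. Libraries held 21727258 to 45341870 counted reads. All 12 cardiomyocyte markers examined were detected in every library. Their summed level lay between 8068 and 21196 RPKM, with the Mef2cAHF::Cre tissue from 8068 to 11430.5 RPKM, below the whole hearts, which began at 15043 RPKM.

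The sodium pump exports sodium and imports potassium across the plasma membrane and so sets the gradients on which excitability and calcium removal in heart muscle depend. Its beta subunit is a glycoprotein needed to fold the catalytic subunit and bring it to the membrane. FXYD proteins are small membrane proteins that associate with the pump and adjust its transport, and the heart form, phospholemman (FXYD1), restrains the pump until it is phosphorylated. Dysadherin (FXYD5) is known from epithelia and cell adhesion, and phosphohippolin (FXYD6) from brain.

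The start regions of 3 members are shown because the largest differences were those of Fxyd1, Fxyd5 is its close neighbour on the same strand, and Atp1b1 was the most abundant member. Each holds 250 bases before and 50 after the start site in RefSeq (GRCm38.p6), and 5 of the 6 members had an entry (Atp1b2 had none). Capitals mark matches, on either strand, to the GC box GGGCGG in Atp1b1 and, in Fxyd1, to the letters TATAAA of a TATA box. The Fxyd1 match begins at position 2, after the start site. It lies on the strand opposite to the one printed, where it reads TTTATA, so only the letters are shared with a TATA box.
Fxyd1, chr7:31054804-31055103, minus strand: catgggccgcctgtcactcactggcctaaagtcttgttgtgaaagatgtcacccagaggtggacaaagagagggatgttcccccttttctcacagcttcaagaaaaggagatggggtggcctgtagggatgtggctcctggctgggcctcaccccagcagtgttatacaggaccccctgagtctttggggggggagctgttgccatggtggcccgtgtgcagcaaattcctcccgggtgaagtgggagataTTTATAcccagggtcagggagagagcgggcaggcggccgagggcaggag
Fxyd5, chr7:31042282-31042581, minus strand: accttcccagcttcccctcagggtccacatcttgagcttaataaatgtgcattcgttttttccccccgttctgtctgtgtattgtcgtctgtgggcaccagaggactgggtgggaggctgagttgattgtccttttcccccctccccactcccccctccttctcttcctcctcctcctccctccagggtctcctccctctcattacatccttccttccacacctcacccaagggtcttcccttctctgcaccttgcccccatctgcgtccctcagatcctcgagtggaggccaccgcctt
Atp1b1, chr1:164458306-164458605, minus strand: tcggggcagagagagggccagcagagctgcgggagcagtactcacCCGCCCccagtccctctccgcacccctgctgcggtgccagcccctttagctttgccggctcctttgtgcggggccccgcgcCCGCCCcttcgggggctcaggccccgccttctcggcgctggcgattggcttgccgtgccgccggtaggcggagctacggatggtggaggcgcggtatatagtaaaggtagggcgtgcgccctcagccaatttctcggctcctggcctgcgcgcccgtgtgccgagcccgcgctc

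Atp1b1 held 31 CpG dinucleotides in this window and 71.0% G and C, whereas Fxyd1 and Fxyd5 held 6 CpG each with 58.7% and 57.3% G and C. A GC box is found in 35.7% of the 32851 windows of this length in the same collection and TATAAA in 13.6%. ACGTG (the HIF core, in 19.6% of windows), CACGTG (an E-box that contains ACGTG, in 7.15%), CATTCC (MCAT, in 14.7%) and the CArG box (in 1.63%) had 0 matches in these 3 windows. Of the other members, Fxyd6 had 0 matches to any of the motifs, and the 2 windows of Atp1b3 had 6 GC boxes in one and 3 ACGTG matches, including 1 CACGTG, in the other. A match says only that the letters are present.

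On mm9, the build of the counts, Fxyd1 (ENSMUSG00000036570) lies on chromosome 7 from 31836699 to 31840674 and Fxyd5 (ENSMUSG00000009687) on the same minus strand from 31817750 to 31827137, with Fxyd7 between them. Fxyd6 (ENSMUSG00000066705) lies on chromosome 9 from 45178522 to 45204237. Atp1b1 (ENSMUSG00000026576) lies on chromosome 1 from 166367398 to 166388486, Atp1b2 (ENSMUSG00000041329) on chromosome 11 from 69413238 to 69419462, and Atp1b3 (ENSMUSG00000032412) on chromosome 9 from 96233099 to 96264734. No exon of the 6 members overlaps an exon of another gene on either strand in GENCODE vM1. Atp1b3 counts are uncertain to the extent that an aligned stretch of 955 bases of its transcript has a copy elsewhere. That copy has 96.1% identity and lies on chromosome X from 20723830 to 20724770. For Fxyd5, at most 5.20% of a transcript had copies elsewhere at 95% identity. The length used for Fxyd5 was 804 bases, while its exons in GENCODE vM1 cover 4185. Its RPKM, and the FXYD shares by FPKM, depend on that length.

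Atp1b1 was by far the most abundant member in all groups. Averaged over the 20 libraries it reached 217 RPKM, against 53.6 RPKM for Atp1b3 and 7.35 RPKM for Atp1b2, and it lay above 99.1% of the genes that passed the filter on low counts. Of the FXYD genes, Fxyd1 averaged 36.1 RPKM, Fxyd5 9.69 RPKM and Fxyd6 8.47 RPKM. The members also differed in how far they varied between libraries. The highest library exceeded the lowest 1.72-fold for Atp1b1 and 36.1-fold for Fxyd1, with Atp1b3 at 2.29, Atp1b2 at 2.80, Fxyd6 at 3.69 and Fxyd5 at 4.23-fold between these. Each member had at least 60 reads in every library.

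**Figure D1:**
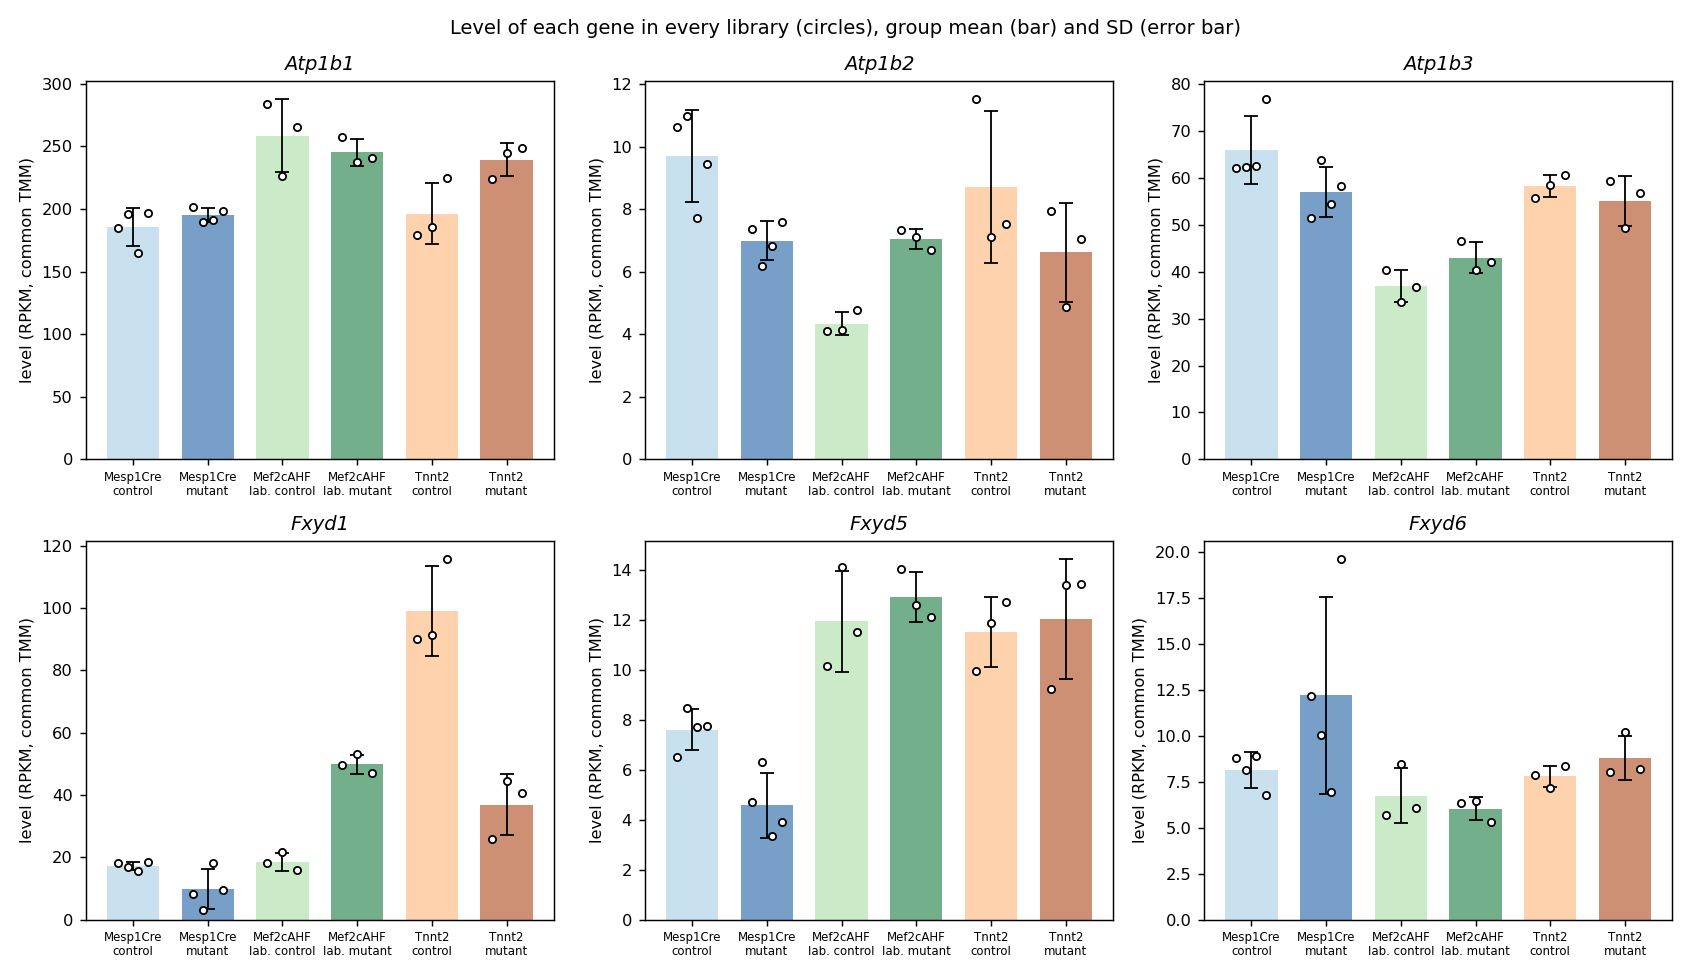
Level of the 6 genes in RPKM (vertical axis, starting at 0, scaled by 1 TMM normalisation) in the 6 groups (horizontal axis). Circles are libraries, bars group means and error bars SD, and the 3 Tnnt2::Cre controls of Fxyd1, at 90.1, 91.3 and 116 RPKM, stand above all other libraries.

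Fxyd1 was lower in Tnnt2::Cre mutants. The 3 controls had 90.1, 91.3 and 116 RPKM and the 3 mutants 25.7, 44.5 and 40.6 RPKM. No mutant reached the lowest control, and 17.1% of all genes tested had groups that did not overlap. Group means were 99.01 ± 14.4 RPKM in controls (SD, n = 3) and 36.9 ± 9.88 RPKM in mutants (SD, n = 3). Each control had at least 2234 reads of Fxyd1 and each mutant at most 1202. Within this line the log2 fold change was -1.42 (SE 0.20, 95% interval -1.87 to -0.96, FDR 0.0274 by edgeR). Fxyd1 was the 1 member of 6 past the threshold of 0.05, where 0.293% of the 17045 genes tested passed it, 0.0763% as higher and 0.217% as lower. These 50 genes became 896 without mutant replicate 1, and 4 to 17 without mutant replicate 3 or any 1 control, so this background is itself uncertain. The call rests on few libraries: it was lost without mutant replicate 3 (FDR 0.113) and without control replicate 1, 2 or 3 (FDR 0.124, 0.0947 and 0.195), while the fold change stayed between -1.58 and -1.21. With sex as a covariate the edgeR FDR was 0.0980, and in 1 fit of all 6 groups it was 0.0605.

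The other members of Tnnt2::Cre did not pass the test. Atp1b1 had 179, 185 and 224 RPKM in controls and 224, 245 and 249 RPKM in mutants. After the scaling of this line alone its groups did not overlap, and its log2 fold change was 0.29 (SE 0.12, edgeR FDR 0.397). Atp1b2 had 8.72 ± 2.44 RPKM in controls and 6.62 ± 1.59 RPKM in mutants (SD, n = 3 each, edgeR FDR 0.528). Atp1b3, Fxyd5 and Fxyd6 differed by -0.08, 0.07 and 0.18 on the log2 scale, with edgeR FDR from 0.658 to 0.924.

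In Mef2cAHF::Cre Fxyd1 was higher in the libraries labelled mutant. The 3 libraries labelled mutant had 49.6, 53.0 and 47.0 RPKM and the 3 labelled control 18.02, 21.7 and 16.0 RPKM. The groups did not overlap, as was true of 24.0% of the genes tested in this line. The fit gave a log2 fold change of 1.42 (SE 0.12, 95% interval 1.16 to 1.69, edgeR FDR 8.26e-04), and leaving out any 1 library kept the FDR between 2.04e-04 and 0.0106. In the fit of all 6 groups, whose spread includes the more variable lines, the edgeR FDR was 0.0526.

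Atp1b2 moved the same way in this line. It had 7.33, 7.12 and 6.69 RPKM in the libraries labelled mutant and 4.12, 4.13 and 4.76 RPKM in those labelled control. The log2 fold change was 0.70 (SE 0.09, 95% interval 0.50 to 0.91, edgeR FDR 0.00705), so 2 of the 6 members passed, both higher, where 2.85% of the 16920 genes tested passed, 1.81% as higher and 1.04% as lower. The 482 genes behind these shares became 78, 75 and 148 without the library labelled mutant replicate 1, 2 or 3. Lower genes made up 36.5% of the calls here, and 61.9% of those made on the deposited FPKM scale. Without the libraries labelled mutant replicate 1 or replicate 2 the FDR of Atp1b2 was 0.0575 and 0.0603, and in the 6-group fit 0.0979. Atp1b3 had 43.0 ± 3.24 RPKM in the libraries labelled mutant and 36.9 ± 3.43 RPKM in those labelled control (SD, n = 3 each). Its groups did not overlap after the scaling of this line, and its edgeR FDR was 0.224. Atp1b1, Fxyd5 and Fxyd6 had edgeR FDR from 0.675 to 0.742.

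By the column names every sign in Mef2cAHF::Cre is reversed: Fxyd1 then fell by 1.42 and Atp1b2 by 0.70 on the log2 scale in mutants. Under that reading the fold change of Fxyd1 was -1.42 in both E11.5 lines, and the difference between the lines was 0.00 (95% interval -0.73 to 0.73, edgeR FDR 1.00). For Atp1b2 the difference between these lines was -0.30 (95% interval -0.84 to 0.23). By the titles the lines differed, with a log2 difference (Mef2cAHF::Cre minus Tnnt2::Cre) of 2.85 for Fxyd1 (SE 0.47, edgeR FDR 0.00166) and 1.10 for Atp1b2 (SE 0.26, edgeR FDR 0.0214). These were 2 of the 6 members, where 3.19% of 18391 genes tested passed by the titles. By the column names 0% passed by edgeR, 472 genes had an unadjusted p under 0.05, and 0 of the 6 members did. The files do not settle which reading is right.

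Mesp1Cre hearts, the youngest, had low and uneven Fxyd1. The 4 controls had 18.1, 16.8, 15.6 and 18.6 RPKM and the 4 mutants 8.09, 3.20, 18.3 and 9.64 RPKM. Mutant replicate 3 lay within the controls and the other 3 mutants below them. The log2 fold change was -0.80 (SE 0.37, edgeR FDR 0.180). Without mutant replicate 3 it was -1.28 with an edgeR FDR of 0.0285.

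Atp1b2 was the 1 member of 6 past the threshold in Mesp1Cre, where 6.17% of the 15883 genes tested passed as higher and 5.29% as lower. Lower genes made up 46.2% of the calls of this line, and 15.0% of those made on the deposited FPKM scale. It had 10.6, 11.0, 7.71 and 9.46 RPKM in controls and 7.37, 6.20, 6.83 and 7.58 RPKM in mutants, and every mutant lay below every control, a lack of overlap seen in 17.7% of the genes tested. The log2 fold change was -0.45 (SE 0.13, 95% interval -0.73 to -0.18, edgeR FDR 0.0387). This call was fragile: it held when control replicate 3 was left out (FDR 0.0179) and was lost, at FDR from 0.0608 to 0.104, when any of the other 7 libraries was. Males, read from 4 Y-linked genes, were 4 of 4 mutants and 2 of 4 controls, and with sex as a covariate the edgeR FDR was 0.0903.

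Fxyd5 and Fxyd6 leaned in opposite directions in Mesp1Cre without passing the test. Fxyd5 had 6.496, 8.46, 7.73 and 7.73 RPKM in controls and 4.72, 6.31, 3.34 and 3.91 RPKM in mutants. No mutant reached a control, a lack of overlap seen in 17.7% of the genes tested in this line. The log2 fold change was -0.71 (SE 0.25, edgeR FDR 0.0887). Fxyd5 passed in 2 of 8 other settings, with DESeq2 (FDR 0.0480) and in the 6-group fit (FDR 0.0107). The highest FDR among these 8 settings was 0.274. Without mutant replicate 2, the mutant with the highest Fxyd5, its FDR was 0.0386. Fxyd6 had 8.80, 8.12, 8.91 and 6.76 RPKM in controls and 12.2, 10.05, 6.95 and 19.6 RPKM in mutants, with a log2 fold change of 0.60 (SE 0.25, edgeR FDR 0.147). Without mutant replicate 3, the library with the lowest Fxyd6 and highest Fxyd1 of the mutants, it was 0.80 (edgeR FDR 0.0422). Atp1b1 and Atp1b3 differed by 0.09 and -0.19 on the log2 scale (edgeR FDR 0.446 and 0.222).

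**Figure D2:**
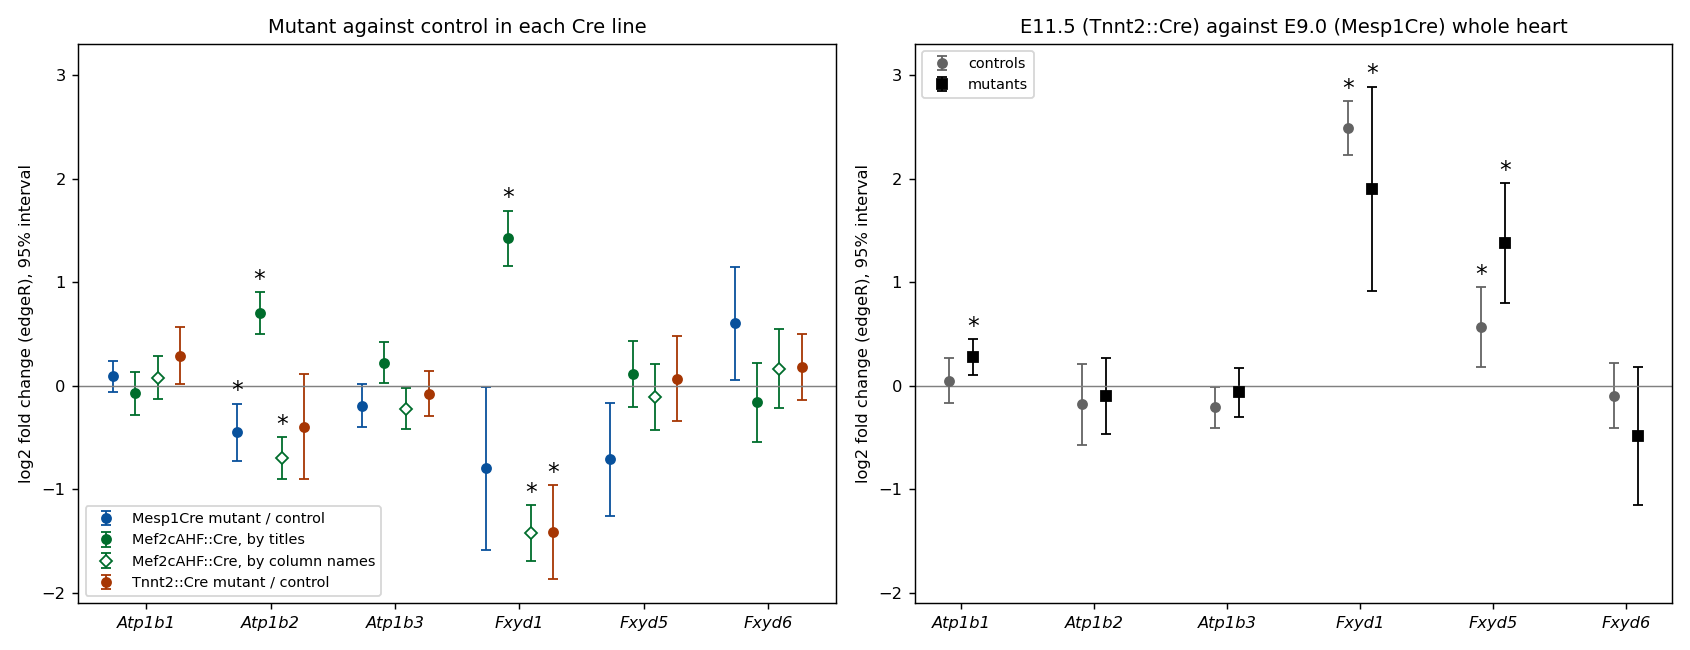
log2 fold change of each gene by edgeR (vertical axis) with its 95% interval, left for mutant against control in the 3 Cre lines and right for E11.5 against E9.0, where asterisks mark FDR below 0.05 in that fit. Open diamonds give Mef2cAHF::Cre by the column names, which puts Fxyd1 at -1.42, where Tnnt2::Cre lies.

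The genotype differences of Mesp1Cre and Tnnt2::Cre could not be told from each other for any member: edgeR FDR of the difference ran from 0.121 for Fxyd5 to 0.910 for Atp1b2, where 3.04% of genes passed. For Fxyd1 the difference was 0.60 with a 95% interval from -0.32 to 1.52, which leaves room for a sizeable one. Against Mef2cAHF::Cre by the titles, Mesp1Cre differed in 3 of the 6 members, where 11.3% of genes passed. The log2 differences (Mesp1Cre minus Mef2cAHF::Cre) were -2.25 for Fxyd1 (edgeR FDR 0.00283), -1.17 for Atp1b2 (edgeR FDR 0.00345) and -0.43 for Atp1b3 (edgeR FDR 0.0457). The last of these passed in 7 of 20 fits that left out 1 library. By the column names 0 of the 6 members passed (1.63% of genes did), with 0.60 for Fxyd1, 0.23 for Atp1b2 and 0.01 for Atp1b3 (edgeR FDR 0.545, 0.698 and 0.983), and 1 member, Fxyd5, had an unadjusted p under 0.05.

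Between E9.0 and E11.5 whole hearts the clearest difference was again in Fxyd1. Controls went from 17.3 ± 1.32 RPKM at E9.0 (SD, n = 4) to 99.01 ± 14.4 RPKM at E11.5 (SD, n = 3). The log2 fold change was 2.49 (SE 0.12, 5.60-fold, edgeR FDR 2.21e-07). It passed in every fit that left out 1 library. Stage cannot be told apart from Cre line here, since the E9.0 hearts are Mesp1Cre and the E11.5 whole hearts Tnnt2::Cre. Depth differed as well, with 25581534 to 28790705 counted reads in E9.0 controls and 36809972 to 45341870 in E11.5 controls. The column names also carry a different number for each of these lines, whose meaning is not given.

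Fxyd5 was also higher at E11.5. Control libraries had 6.496 to 8.46 RPKM at E9.0 and 9.97, 11.9 and 12.7 RPKM at E11.5, which gave a log2 fold change of 0.57 (SE 0.18, edgeR FDR 0.0252). Fxyd1 and Fxyd5 were 2 of the 6 members past the threshold, both higher, where 38.3% of the 16697 genes tested passed and 19.6% were higher. The Fxyd5 call was lost without Tnnt2::Cre control replicate 2 or 3 (FDR 0.0880 and 0.106) or Mesp1Cre control replicate 1 (FDR 0.0520). Atp1b3 had a log2 fold change of -0.21 with no overlap between the groups after the scaling of this comparison, as was true of 45.5% of the genes, and an edgeR FDR of 0.0920.

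In mutants the same comparison passed for 3 of the 6 members, all higher at E11.5, where 35.9% of the 16617 genes tested passed and 18.8% were higher. Fxyd1 rose from 9.81 ± 6.28 to 36.9 ± 9.88 RPKM, a log2 fold change of 1.90 (SE 0.44, edgeR FDR 0.00875). Fxyd5 rose from 4.57 ± 1.29 to 12.02 ± 2.41 RPKM, a log2 fold change of 1.38 (SE 0.26, edgeR FDR 0.00316). Atp1b1 rose from 195 ± 5.77 to 239 ± 13.1 RPKM, a log2 fold change of 0.28 (SE 0.08, edgeR FDR 0.0188), and lost the call without Tnnt2::Cre mutant replicate 3 (FDR 0.0785). The n were 4 at E9.0 and 3 at E11.5, and the groups did not overlap for these 3 genes, which was true of 43.8% of the genes tested. Males were 4 of 4 at E9.0 and 1 of 3 at E11.5. With sex as a covariate the edgeR FDR was 0.118 for Atp1b1 and 0.0655 for Fxyd1, and Fxyd5 alone passed. Whether the stage difference of Fxyd5 is larger in mutants than in controls is the same test as that between the genotype differences of these lines, with an edgeR FDR of 0.121.

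Set beside each other, the 6 group means of Fxyd1 fell in the order Tnnt2::Cre control, Mef2cAHF::Cre labelled mutant, Tnnt2::Cre mutant, Mef2cAHF::Cre labelled control, Mesp1Cre control and Mesp1Cre mutant. The first 4 of these, down to Mef2cAHF::Cre labelled control, did not overlap with their neighbours above. The E9.0 controls, at 17.3 RPKM, overlapped with the Mef2cAHF::Cre labelled control, at 18.6 RPKM, and with the E9.0 mutants. For Atp1b2 the group that stood apart was Mef2cAHF::Cre labelled control at the bottom, with 4.34 ± 0.369 RPKM (SD, n = 3), and for Atp1b1 all neighbours overlapped. Atp1b3 was lowest in the right ventricle and outflow tract, with 33.5 to 46.6 RPKM over the 6 Mef2cAHF::Cre libraries against 49.2 to 76.8 RPKM over the 14 whole hearts. That tissue also had lower summed cardiomyocyte markers. Per 1000 RPKM of these, Atp1b3 averaged 3.91 and 3.88 in its labelled control and labelled mutant groups. The whole-heart groups averaged 2.74 to 3.61. On this scale Atp1b2 averaged 0.463 in the labelled control, above the mutants of Mesp1Cre (0.388) and Tnnt2::Cre (0.329). Fxyd5 was lowest at E9.0, and all 14 libraries of whole hearts kept their order, with E9.0 mutants below E9.0 controls and these below E11.5. How many other genes kept this order, or set groups or tissues apart as the other members did here, was not examined. Taken pair by pair, 17.7% of the genes tested did not overlap between the Mesp1Cre groups, and 45.5% between stages in controls.

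Shares within each family describe the mix of subunits, from the deposited FPKM and with no test. Atp1b1 supplied 69.5% to 86.5% of the summed FPKM of the 3 beta genes in every library, so no library showed an exchange of the leading beta gene. The share was 74.4 ± 2.07% in Tnnt2::Cre controls and 79.5 ± 2.50% in mutants (SD, n = 3 each), 5.03 percentage points more. The groups fell just short of overlap, with 76.7% in the highest control and 76.9% in the lowest mutant. In Mesp1Cre it was 71.0 ± 1.52% in controls and 75.3 ± 1.82% in mutants (SD, n = 4 each), 4.28 points more. Here too the groups fell just short of overlap, with 72.8% in the highest control and 73.0% in the lowest mutant. In Mef2cAHF::Cre it was 86.2 ± 0.402% in the libraries labelled control and 83.1 ± 0.341% in those labelled mutant (SD, n = 3 each), a difference of -3.16 points by the titles and 3.16 points by the column names. The counterpart was mostly Atp1b3, whose share was 25.3% and 21.99% in Mesp1Cre controls and mutants and 22.2% and 18.3% in those of Tnnt2::Cre. Atp1b2 never exceeded 4.68%. The levels of Atp1b1 and Atp1b3 did not pass the test in Mesp1Cre or Tnnt2::Cre (edgeR FDR from 0.222 to 0.796). By level, 17.7% of the genes tested in Mesp1Cre and 17.1% in Tnnt2::Cre had groups that did not overlap.

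The FXYD mix was less fixed. Fxyd1 supplied 83.6 ± 0.926% of the summed FPKM of the 3 FXYD genes in Tnnt2::Cre controls and 63.5 ± 3.16% in mutants (SD, n = 3 each), while the share of Fxyd5 was 9.77 ± 0.850% and 20.9 ± 1.06% and that of Fxyd6 6.63 ± 0.596% and 15.6 ± 2.82%. None of the 3 shares overlapped, but they add up to the whole and are not separate results. By level, 17.1% of the genes tested in this line had groups that did not overlap. A lower Fxyd1 raises the other shares even where their levels do not change. The levels of Fxyd5 and Fxyd6 did not pass the test in this line (0.07 and 0.18 on the log2 scale, edgeR FDR 0.924 and 0.658). In Mef2cAHF::Cre Fxyd1 had 72.5 ± 1.41% in the libraries labelled mutant and 49.9 ± 2.93% in those labelled control (SD, n = 3 each).

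At E9.0 the leading FXYD gene differed between mutant hearts. By FPKM Fxyd1 led in all 4 Mesp1Cre controls with 48.4% to 56.2%. Among mutants it had 16.4% to 64.0%, and Fxyd6 had 24.3% to 59.1%, so that Fxyd6 led in the 3 mutants other than replicate 3. By reads not divided by gene length Fxyd6 led in 3 of the 4 controls as well, with 42.8%, 39.9% and 44.1% against 40.6%, 38.2% and 35.8% for Fxyd1 in replicates 1 to 3, so the change of leading gene between controls and mutants depends on dividing by length. By FPKM the share of Fxyd1 differed by -16.8 points between mutants and controls of Mesp1Cre, by -26.3 points without mutant replicate 3 and by -10.5 points without mutant replicate 2. Between E11.5 and E9.0 controls it differed by 31.3 points. The summed level of the 3 FXYD genes was 33.0 ± 0.526 RPKM in Mesp1Cre controls (SD, n = 4) and 118 ± 16.0 RPKM in Tnnt2::Cre controls (SD, n = 3), whereas that of the 3 beta genes was 261 ± 20.2 and 263 ± 25.4 RPKM.

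**Figure D3:**
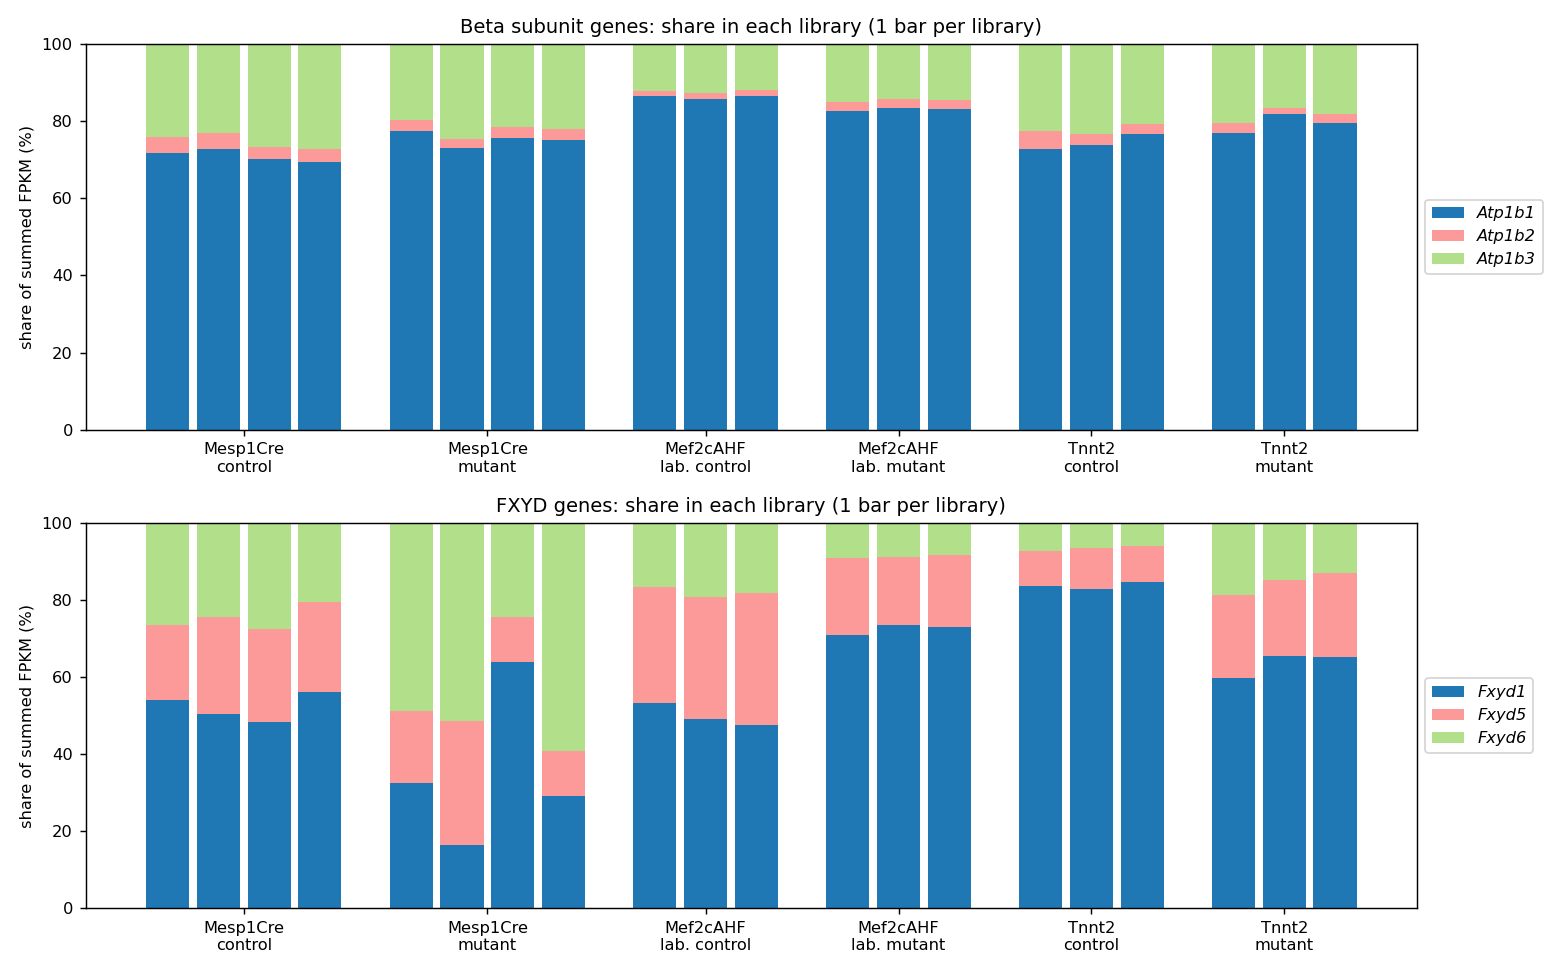
Share of each gene in the summed FPKM (vertical axis, percent) of the beta genes (top) and FXYD genes (bottom), with 1 bar per library. Atp1b1 fills 69.5% to 86.5% of each upper bar, and Fxyd6 takes the largest part of the lower bar in 3 of the 4 Mesp1Cre mutants.

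Blood RNA moved with several of these differences. In bulk tissue fewer cells of a type and less RNA per cell cannot be told apart. The summed level of 10 erythroid genes lay between 137502 and 210500 RPKM in Tnnt2::Cre controls and between 25401 and 174570 RPKM in mutants, between 31182 and 59164 RPKM in Mef2cAHF::Cre libraries labelled mutant and between 9054 and 40368 RPKM in those labelled control, and between 7180 and 23536 RPKM in Mesp1Cre controls and 2532 and 9767 RPKM in mutants. None of the 10 was at 0 reads in any library. As with Fxyd1, the group means were lower in mutants of Mesp1Cre and Tnnt2::Cre and higher at E11.5 and in the Mef2cAHF::Cre libraries labelled mutant. Past the threshold were 4 of 10 in Mesp1Cre, all lower, and 1 of 10 in Mef2cAHF::Cre, higher by the titles. In Tnnt2::Cre 0 of 10 passed by edgeR (0 with an unadjusted p under 0.05), and between stages 10 of 10, all higher. Over all genes tested, 5.29% passed as lower in Mesp1Cre, 1.81% as higher in Mef2cAHF::Cre and 0.293% in Tnnt2::Cre. Between stages 19.6% passed as higher in controls and 18.8% in mutants. All 10 erythroid genes nevertheless had a fold change below 0 in Tnnt2::Cre (median -1.04 on the log2 scale). The same held in Mesp1Cre (8 with an unadjusted p under 0.05, median -1.25). By the titles 9 of 10 were above 0 in Mef2cAHF::Cre (6 with an unadjusted p under 0.05, median 0.92).

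Within groups the order of the libraries by Fxyd1 and by the erythroid sum differed, except in the Mef2cAHF::Cre libraries labelled mutant, where it was the same. The Tnnt2::Cre mutant with the most erythroid RNA (174570 RPKM) had the lowest Fxyd1 of its group (25.7 RPKM), and the one with the least (25401 RPKM) had the highest (44.5 RPKM). The Mesp1Cre mutant with the most (9767 RPKM) likewise had the lowest Fxyd1 (3.20 RPKM). The Mef2cAHF::Cre library labelled control with 40368 RPKM of erythroid RNA had 16.0 RPKM of Fxyd1, while the one labelled mutant with 31182 RPKM had 47.0 RPKM. These are single libraries picked from small groups, and an order over 3 or 4 libraries carries little information. The part of blood RNA in the Fxyd1 differences was not tested.

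**Figure D4:**
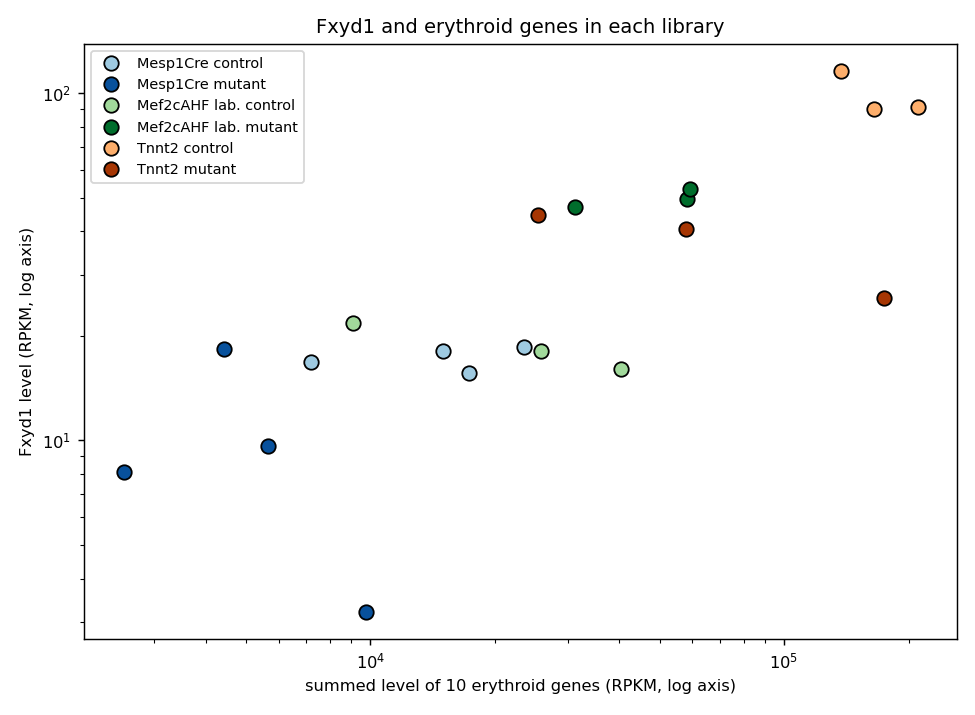
Level of Fxyd1 (vertical log axis, RPKM) against the summed level of 10 erythroid genes (horizontal log axis, RPKM), with 1 circle per library and 1 colour per group. The Tnnt2::Cre mutant at 174570 RPKM of erythroid RNA lies among the controls on the horizontal axis and at 25.7 RPKM of Fxyd1, below them.

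Divided by the summed level of the 12 cardiomyocyte markers, and given per 1000 RPKM of these, Fxyd1 was 5.68 ± 0.333 in Tnnt2::Cre controls and 1.83 ± 0.477 in mutants (SD, n = 3 each), with no overlap. It was 2.01 ± 0.592 and 4.51 ± 0.343 in Mef2cAHF::Cre libraries labelled control and labelled mutant (SD, n = 3 each), also with no overlap. In Mesp1Cre controls and mutants it was 0.942 ± 0.0790 and 0.539 ± 0.334 (SD, n = 4 each). By level, groups did not overlap in 17.1% of the genes tested in Tnnt2::Cre and 24.0% in Mef2cAHF::Cre. Of the 12 cardiomyocyte markers 0 passed in Tnnt2::Cre by edgeR (2 with an unadjusted p under 0.05, 8 with a fold change above 0), 1 was higher in Mef2cAHF::Cre by the titles (6 with an unadjusted p under 0.05, 11 with a fold change above 0, median 0.28 on the log2 scale), and 1 was higher and 2 were lower in Mesp1Cre (4 with an unadjusted p under 0.05, 5 with a fold change above 0). Between stages 9 of the 12 passed in controls, 6 of them higher at E11.5. In that comparison 38.3% of all genes tested passed and 19.6% were higher.

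Markers of other cell types also differed between stages, where 38.3% of all genes tested passed in controls and 35.9% in mutants. All 6 mesenchymal markers were higher at E11.5 in controls and in mutants, and their summed level lay between 13.9 and 25.9 RPKM in E9.0 controls and between 117 and 163 RPKM in E11.5 controls. The same held for all 6 epicardial markers, with sums from 7.79 to 27.0 and from 92.2 to 109.98 RPKM. Of the 6 macrophage markers 4 were higher in controls and 6 in mutants. Fcgr1, Cx3cr1, Emr1 and C1qa were at 0 reads in at least 1 E9.0 library of each genotype. Not all lists rose: of 4 smooth muscle markers 3 were lower at E11.5 in controls and 1 in mutants. Of 8 endothelial and endocardial markers 4 were higher and 1 lower in controls, and 2 and 2 in mutants. Among neural crest and neuronal markers 1 was lower in controls, and 1 was higher and 1 lower in mutants. Within Mesp1Cre, 3 of 8 endothelial and endocardial markers were higher in mutants, and 1 of 6 mesenchymal and 1 of 4 smooth muscle markers lower. In this line 6.17% of all genes tested passed as higher and 5.29% as lower. In Tnnt2::Cre 0 markers of these lists passed by edgeR, although all 6 macrophage markers had a fold change above 0 (4 with an unadjusted p under 0.05, median 0.54 on the log2 scale), as had all 6 epicardial markers (2 with an unadjusted p under 0.05, median 0.17) and 3 of 4 smooth muscle markers (2 with an unadjusted p under 0.05, median 0.64). In Mef2cAHF::Cre by the titles 1 of 8 endothelial and endocardial markers was higher, and all 6 macrophage markers had a fold change below 0 (2 with an unadjusted p under 0.05, median -0.50), as had 5 of 6 epicardial markers (3 with an unadjusted p under 0.05, median -0.27). The part of these cell types in the Fxyd1 and Fxyd5 differences was not tested.

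The other genes of the pathway were taken as 3 lists. Of 10 kinases, phosphatases and inhibitors that act on phospholemman, Ppp1r1a, which encodes inhibitor-1 of a protein phosphatase and is itself a target of protein kinase A, passed in all 3 lines. It had 15.0 ± 1.60 RPKM in Mesp1Cre controls and 3.62 ± 0.600 RPKM in mutants (SD, n = 4 each). The log2 fold change was -2.03 (edgeR FDR 1.88e-05). It had 14.3 ± 2.94 and 5.51 ± 0.522 RPKM in Tnnt2::Cre controls and mutants (SD, n = 3 each), which is -1.37 on the log2 scale (edgeR FDR 0.0179). In the Mef2cAHF::Cre libraries labelled control and labelled mutant it had 2.00 ± 0.345 and 7.24 ± 0.601 RPKM (SD, n = 3 each), which is 1.85 on the log2 scale by the titles (edgeR FDR 0.00114) and the opposite by the column names.

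In Mesp1Cre 3 more genes of this list passed, with Prkacb, a catalytic subunit of protein kinase A, higher (0.35 on the log2 scale) and the phosphatase catalytic subunits Ppp1ca and Ppp2ca lower (-0.39 and -0.25). With Ppp1r1a this made 1 of 10 higher and 3 of 10 lower, where 6.17% of all genes tested in this line passed as higher and 5.29% as lower. The median over the 10 was -0.15 in Mesp1Cre, 0.09 in Mef2cAHF::Cre by the titles and -0.00 in Tnnt2::Cre, against -0.00, -0.01 and 0.00 over all genes tested. Of 13 transporters that use or rebuild the sodium and potassium gradients 10 were tested, and 1 passed within a line: the potassium-chloride cotransporter gene Slc12a4 in Mesp1Cre (-0.55, edgeR FDR 0.0271). Slc8a1, the sodium-calcium exchanger gene that runs on the sodium gradient, was lower at E11.5 than at E9.0 in controls (101 ± 8.21 against 163 ± 17.8 RPKM, log2 fold change -0.72). Between stages 4 of the 10 passed in controls, 2 in each direction, where 38.3% of all genes tested passed.

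Of the 9 other beta, FXYD and NKAIN genes 2 to 5 had enough reads to be tested, and their edgeR FDR within a line ran from 0.144 to 0.982. Fxyd3 and Nkain2 had at most 4 and 2 reads in any library, and Atp1b4 and Fxyd2 at most 12 and 17. In controls Nkain1, whose product binds the beta subunit, was lower at E11.5 (-1.59 on the log2 scale, 3.87 ± 0.631 against 11.4 ± 2.36 RPKM), and Nkain3 and Nkain4 were higher. Fxyd4 averaged 1.42 to 3.82 RPKM over the groups.

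For each member the 2 genes most like it were taken by Pearson's r of log2 CPM over the 20 libraries, among 9182 genes of sufficient level. They were Tmem176a (r = 0.94) and Tgm2 (r = 0.93) for Fxyd1, Grk5 (0.95) and Timp2 (0.93) for Fxyd5, and Lmbrd1 (0.85) and G6pc3 (0.79) for Fxyd6. For the beta genes they were Fam198b (0.87) and Slitrk4 (0.86) with Atp1b1, Ppp1cb (0.85) and Unc45b (0.85) with Atp1b2, and Lypla1 (0.96) and Sh3bgr (0.95) with Atp1b3. Among the members the highest r was 0.72 between Atp1b2 and Atp1b3 and the lowest -0.68 between Atp1b1 and Atp1b3. These points share Cre line, stage and tissue within each group, so r describes these libraries only.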

How the data were processed

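RNA-seq of 20 embryonic mouse heart libraries was analysed. Per the labels, reads were aligned to mm9, with TopHat2 2.0.8b named in the submitters' processing notes. The authors assigned reads to genes with featureCounts and deposited a count per gene and library, not normalised. The deposited FPKM equals that count over gene length and library total. Whether counting used strand is not given in the sources used here, and paper and labels differ on library kit and instrument. The 20 deposited columns of variance-corrected log2 values were not used, and the deposited log2 values support no number here. Catalytic (alpha) subunit genes are not reported here.

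Counts were fitted per comparison with edgeR 4.0.16 in R 4.3.3 (filterByExpr, TMM, quasi-likelihood F test) without covariates, with Benjamini-Hochberg adjustment over all genes tested (FDR) and 0.05 as the threshold. Genotype differences were compared between lines in 1 fit of 6 groups. SE is the log2 fold change over the square root of F. Groups overlap or not in CPM of that fit. RPKM came from counts under 1 TMM over all libraries. Alternatives were DESeq2 1.42.0, its size factors in edgeR, no filter on low counts, the 6-group fit, the replicate block, sex as a covariate, limma 3.58.1 (trended variance) on log2 of FPKM with a pseudocount of 0.1 or 1, shares of reads, each library left out, and the column names. The fits were tested on simulated data. Depth ran from 21727258 to 45341870 reads, with 3 or 4 libraries per group. Nothing in the labels pairs same-numbered libraries: the correlation of their deviations ran from -0.09 to 0.13. Labels do not say whether a library is 1 embryo or a pool, so p-values measure the spread between libraries. Copies were sought with blastn 2.17.0 at 95% identity.

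The text names the 6 members, Kmt2d, the pathway genes past the threshold within a line, and the 2 most similar genes per member (mean log2 CPM of at least 3, prior count 2). Pathway genes named for stage or for few reads were chosen after their values were seen. The members and lists were chosen with earlier results of these data known.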

Additional observations from a re-analysis of the deposited data

Results flagged for a closer look

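Among the 4-library groups 1 member stood out in 1 library: Atp1b3 in Mesp1Cre control replicate 4, with 76.8 RPKM against 62.2 to 62.6 RPKM in the other 3 controls. Its gap was 0.969 of the range of the group, above the limit for 4 values. About 1 in 20 groups is marked in this way by chance, and 24 groups were checked. Without this library the genotype difference of Atp1b3 in Mesp1Cre was -0.11 on the log2 scale.

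By the titles the genotype difference depended on the line for 3 members. Between Mef2cAHF::Cre and Tnnt2::Cre the log2 difference was 2.85 for Fxyd1 and 1.10 for Atp1b2. Between Mesp1Cre and Mef2cAHF::Cre it was -2.25 for Fxyd1, -1.17 for Atp1b2 and -0.43 for Atp1b3. By the column names 0 of these 5 passed the threshold. The labels are in conflict for this line, and Kmt2d is higher in the libraries labelled mutant.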

How the results depend on the processing

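By the column names every Mef2cAHF::Cre value changes sign: 0.076 for Atp1b1, -0.70 for Atp1b2, -0.22 for Atp1b3, -1.42 for Fxyd1, -0.11 for Fxyd5 and 0.16 for Fxyd6 on the log2 scale, and 3.16 and -22.5 percentage points for the shares of Atp1b1 and Fxyd1. The differences from Tnnt2::Cre were then -0.30 for Atp1b2, -0.14 for Atp1b3, -4.58e-04 for Fxyd1 and -0.17 for Fxyd5, those from Mesp1Cre -0.0041 for Atp1b1, 0.23 for Atp1b2, 0.010 for Atp1b3 and 0.60 for Fxyd1, and 0 members passed in either. The number of members past the threshold in Mesp1Cre, 1 by edgeR, was 2 with DESeq2, 2 in the 6-group fit, 0 with the replicate block and 0 with sex as a covariate. In Mef2cAHF::Cre it was 2, and 0 in the 6-group fit. In Tnnt2::Cre it was 1, and 0 in the 6-group fit, with sex as a covariate and on either FPKM scale. Between stages it was 2 in controls, and 1 with the replicate block (Fxyd5 FDR 0.0551), and 3 in mutants, and 1 with sex as a covariate and 2 with the replicate block (Atp1b1 FDR 0.131). The replicate numbers are shared by number only, and the block moved the calls over all genes by edgeR from 1821 to 1384 in the Mesp1Cre hearts, from 482 to 517 in the Mef2cAHF::Cre tissue and from 50 to 28 in the Tnnt2::Cre hearts. Fxyd6 in Mef2cAHF::Cre was 0.036 with sex as a covariate. The FPKM scale moved the genome-wide median difference to 0.15 (Mesp1Cre), -0.13 (Mef2cAHF::Cre) and 0.11 (Tnnt2::Cre). On it Fxyd5 in Mef2cAHF::Cre was -0.010 and -0.011 and Atp1b3 in Tnnt2::Cre 0.034 and 0.033 with the pseudocounts 0.1 and 1, Atp1b2 in Mesp1Cre lost its call (FDR 0.183), and Atp1b1 in Mesp1Cre passed with 0.25 (limma FDR 0.0407). By reads not divided by length the Fxyd1 share differed by -24.2 points in Tnnt2::Cre and 37.0 points between stages in controls. The causes of these changes were not tested. Leaving out 1 library gave 0 to 2 members past the threshold in Mesp1Cre, 1 to 2 in Mef2cAHF::Cre, 0 to 1 in Tnnt2::Cre, 1 to 2 and 2 to 3 between stages in controls and mutants, 0 to 1 for Mesp1Cre against Tnnt2::Cre, 1 to 2 for Mef2cAHF::Cre against Tnnt2::Cre and 2 to 4 for Mesp1Cre against Mef2cAHF::Cre. Signs that turned were those of Fxyd6 in Mef2cAHF::Cre (-0.28 to 0.040), Fxyd5 in Tnnt2::Cre (-0.033 to 0.23), Atp1b1 between stages in controls (-0.050 to 0.13), Atp1b2 and Atp1b3 between stages in mutants (-0.24 to 0.084 and -0.12 to 0.010), Atp1b2 for Mesp1Cre against Tnnt2::Cre (-0.33 to 0.080) and Fxyd5 for Mef2cAHF::Cre against Tnnt2::Cre (-0.11 to 0.19), none of them past the threshold. Over all genes DESeq2 called 1103 in Mef2cAHF::Cre and 368 in Tnnt2::Cre, no filter on low counts gave 1311 and 120, the 6-group fit 3593, 129 and 82 from Mesp1Cre to Tnnt2::Cre, sex as a covariate 899 in Mesp1Cre, 17 in Tnnt2::Cre and 1721 of 5973 between stages in mutants, and the FPKM scales 291 and 253 in Mef2cAHF::Cre and 22 and 19 in Tnnt2::Cre. Leaving out 1 library moved the calls over all genes from 50 to 896 (mutant replicate 1), 17 (mutant replicate 3), 14, 17 and 4 (control replicates 1, 2 and 3) in Tnnt2::Cre, from 482 to 78, 75 and 148 (labelled mutant replicates 1, 2 and 3) in Mef2cAHF::Cre, from 1821 to 1133 and 1190 (control replicates 1 and 4) and 1052 (mutant replicate 1) in Mesp1Cre, and from 5973 to 3863 (Tnnt2::Cre mutant replicate 3) between stages in mutants. For the differences between lines these counts ran from 167 to 1037 (Mesp1Cre against Tnnt2::Cre), 295 to 1031 (Mef2cAHF::Cre against Tnnt2::Cre) and 1225 to 2471 (Mesp1Cre against Mef2cAHF::Cre). Counting error is largest for Fxyd1 and Fxyd5, which had as few as 60 and 63 reads in a library.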
